A study of Mus musculus with 8 samples.

Results

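Cytosolic ribosomal protein genes were followed in aged mouse CD8 memory T cells. The genes were chosen by symbol alone: Rpl or Rps followed by a number with at most a trailing a, x, y or l, together with the stalk proteins Rplp0 to Rplp2 and Rpsa. S6 kinases and mitochondrial ribosomal proteins were left out. The rule found 43 core genes, of which 20 encode large subunit proteins, 21 small subunit proteins and 2 stalk proteins (Rplp0 and Rplp2). Another 4 genes, Rpl39l, Rpl3l, Rpl22l1 and Rps27l, are paralogues and were kept apart, which gave 47 genes of the 18194 that have a probe set of a single symbol. Each gene was represented by its brightest probe set over the 8 arrays. A probe set was tested where its mean log2 signal lay above the median of all probe sets; 41 of the 43 core genes and 3 of the 4 paralogues were tested, and Rps16, Rps4l and Rpl3l were too dim. Of the core genes, 40 had a signal above that of unspiked bacterial control probe sets on all 8 arrays.

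The RNA came from 4 old female mice, each of which gave an age-associated clonal expansion (a single T cell clone that has grown to fill much of the memory compartment) and the remaining polyclonal CD8 memory T cells as its partner. The strain was C57BL/10SnJ for mice 1 to 3 and B10.BR for mouse 4, with no treatment named in the labels. Age was 20 months in mice 1 and 2 and 23 months in the other pair of mice. Spleen and lymph node cells were sorted as CD8+ CD122+ MHC II- and, for the expansion, positive for the T cell receptor V beta chain of the clone. That chain was Vb3 in mouse 1, Vb8.1/8.2 in mouse 2, Vb8.3 in mouse 3 and Vb14 in mouse 4, and the partner sample was negative for it. Expansion 1 was of the integrin alpha4-high subclass and expansions 2 to 4 were alpha4-low, so the alpha4-high subclass rests on 1 mouse. The labels disagree on numbering: the descriptions that give the subclass of the samples titled as expansions 3 and 4 call them replicates 4 and 5, and the subclass was taken from each sample's own description. Sort purity was 91% to 98% in the expansions and 97%, 75%, 66% and 97% in polyclonal samples 1 to 4. Every sample was measured once on an Affymetrix Mouse Genome 430 2.0 array.

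The cytosolic ribosome is built from a large and a small subunit, each a scaffold of ribosomal RNA carrying one copy of most of its proteins. The stalk proteins Rplp0 and Rplp2 recruit elongation factors to the large subunit. Messenger RNAs of ribosomal proteins begin with a cytosine followed by a run of pyrimidines, the terminal oligopyrimidine motif through which mTORC1 controls their translation, and their promoters are rich in Ets-family sites. Resting memory T cells make little protein, and activated or dividing T cells raise ribosome production along with growth.

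The promoter sequences of the 3 tested paralogues and of their core counterparts are printed so that each paralogue can be read beside its counterpart. Sequences and starts are from RefSeq on GRCm38.p6, 60 bases before to 20 bases after the first listed start, read 5′ to 3′ on the gene's strand. Capitals mark a cytosine followed by at least 4 pyrimidines within 5 bases of the start, the Ets core CCGGAA and the TATA letters TATAAA, both searched on both strands; marked stretches that overlap run together.
Rpl39, chrX:37085203-37085282, minus strand: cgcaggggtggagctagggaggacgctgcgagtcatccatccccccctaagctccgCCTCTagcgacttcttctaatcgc
Rpl39l, chr16:10170168-10170247, plus strand: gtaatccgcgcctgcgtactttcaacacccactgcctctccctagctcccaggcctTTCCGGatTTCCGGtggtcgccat
Rps27, chr3:90213629-90213708, minus strand: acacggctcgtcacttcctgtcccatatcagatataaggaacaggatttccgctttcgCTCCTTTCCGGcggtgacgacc
Rps27l, chr9:66946026-66946105, plus strand: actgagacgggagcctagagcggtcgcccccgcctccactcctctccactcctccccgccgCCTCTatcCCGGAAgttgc
Rpl22, chr4:152325666-152325745, plus strand: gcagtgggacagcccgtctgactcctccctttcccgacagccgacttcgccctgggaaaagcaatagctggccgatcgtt
Rpl22l1, chr3:28805448-28805527, plus strand: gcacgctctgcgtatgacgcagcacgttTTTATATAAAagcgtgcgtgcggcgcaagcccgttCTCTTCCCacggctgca

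Rpl39 and Rps27 carry the pyrimidine run at the start, as do Rps27l and Rpl22l1. It was not found in this window for Rpl22 and Rpl39l, nor for Rpl3l, whose sequence is not shown. For Rpl22, Rps27l and Rpl39l the first listed start lies inside the gene model. It was 152325726, 66946086 and 10170228, against gene model starts of 152324436, 66944624 and 10170197. The run was not searched for at those outer starts. Rpl22l1 alone of these 6 has TATA letters within the printed stretch. Of the 43 core genes 37 matched the RefSeq promoter table. The pyrimidine run was found at the start of 18 of them (48.6%), against 18.5% of the 27025 promoters in the table. Within the full window of 300 bases the Ets core was found in 22 (59.5%), against 15.2% of all promoters. The Yy1 letters AAGATGG were found in 6 (16.2% against 6.48%) and TATAAA in 4 (10.8% against 14.2%). The E-box CACGTG, the site of Myc, was found in 3 (8.11%), close to the 7.24% of all promoters. Each of these is a count of letters and not of occupied sites.

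The arrays differed in ways that touch every value below. The median signal of an array ran from 46.5 to 75.1, and between 22085 and 30533 probe sets lay above background. All 8 genes of the CD8 T cell list, Cd8a and Cd3e among them, were above background on every array. The summed signal of 7 B cell markers was 3096 to 4214 in the expansions and 2240 to 4527 in the polyclonal samples. That of 6 NK cell genes was 8907 to 27190 and 17590 to 47090. Of these 6, Klre1, Klra8 and Eomes were above background on all 8 arrays, Tyrobp on 6 and Fcer1g on 5, while Ncr1 was above background on no array. Of the 4 CD4 T cell genes, 1 to 4 were above background on an array, with summed signals of 276.9 to 345.1 in the expansions and 180.7 to 419.4 in the polyclonal samples. Cd4 itself was 101.4 in polyclonal sample 3 and 43.94 in polyclonal sample 2, where the background was 43.6, and lay between 2.801 and 17.4 elsewhere. The 4 neutrophil genes summed to 3070, 5831, 567.2 and 7197 in expansions 1 to 4 and to 1365, 1022, 692.8 and 4457 in their partners, so they were higher in the expansion of 3 of the 4 mice. The 5 macrophage and monocyte genes summed to 1368 to 2852 in the expansions and 663.9 to 1756 in the polyclonal samples. The part of other cells in the results below was not tested. The arrays fall into 3 scanner records: pairs 1 and 2, then pair 3 with polyclonal sample 4, then expansion 4 alone. In pair 4 the record and the sample group cannot be told apart.

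No core ribosomal protein gene passed the test between expansions and polyclonal cells. In the paired limma fit on all 4 mice, 26 of the 41 tested core genes had a positive mean difference (63.4%) and 15 a negative one. Over all 10406 genes tested, 49.4% were positive and 50.6% negative. None of the 41 passed an adjusted p of 0.05, none reached an unadjusted p of 0.05, and 0% of all genes tested passed. The unadjusted threshold was reached by 1.21% of all genes with a higher and 1.85% with a lower signal. The core median was 0.12 on the log2 scale, against -0.01 for all genes tested. None of the 41 core genes kept one sign in all 4 pairs, while 5.34% of all genes were positive and 4.78% negative in every pair. In sorted populations measured in bulk, fewer cells of a type and less RNA per cell cannot be told apart.

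The sign of the core median depended on the scaling. It was 0.12 with 26 of 41 genes positive on the deposited scale and 0.21 with 28 positive after centring each array on its median. After quantile normalization it was -0.05 with 17 positive. Centring on the 18 hybridisation control probe sets (RNA added to the labelled sample; whether every array received the same amount is not given in the labels) gave -0.35 with 3 positive, and that scaling moved the median of all genes to -0.48 and left 10.3% of them positive. Relative to all genes the core median was 0.12 higher on the deposited scale and 0.07 lower after quantile normalization. Both kinds of centring shift all genes of an array by the same amount, so they cannot change the 0.12.

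The core genes moved in opposite directions from mouse to mouse. In pair 1 the median difference, expansion minus polyclonal, was 0.03 on the log2 scale, with 21 of 41 core genes higher in the expansion, and 20 lower, where 55.5% of all genes were higher and 44.5% lower. In pair 2 it was -0.57, with 34 of 41 lower, where 55.4% of all genes were lower and 44.6% higher. In pair 3 it was 0.64, with 37 of 41 higher and 4 lower, against 51.1% and 48.9% of all genes. In pair 4 it was 0.24, with 27 of 41 higher and 14 lower, against 49.5% and 50.5% of all genes. The mean of the 4 medians was 0.09 ± 0.51 (SD, n = 4 pairs), so the spread between mice was several times the mean.

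**Figure D1:**
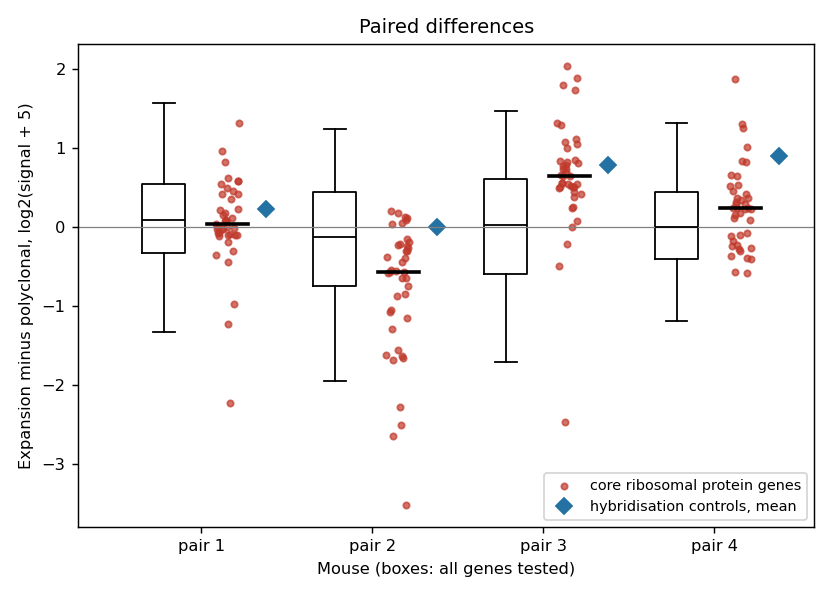
Log2 difference, expansion minus polyclonal, of each core ribosomal protein gene in each of the 4 mice (points), with the core median as a line, on the deposited scale. Boxes show all genes tested, with their median as a line, and diamonds the mean difference of the hybridisation controls. The core median was -0.57 in pair 2 and 0.64 in pair 3, and 34 of 41 genes lay below 0 in pair 2 while 37 of 41 lay above it in pair 3.

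In pair 2 the polyclonal sample and in pair 3 the expansion was the high array. Setting each gene to its own mean over the 8 arrays, the median core gene stood at 0.67 in expansion 3 and at 0.39 in polyclonal sample 2. The other arrays lay between -0.49 in polyclonal sample 4 and -0.05 in polyclonal sample 3. Expansion 3 was the highest array for 21 of the 41 core genes (51.2%, against 25.3% of all genes tested), and polyclonal sample 2 for 17 (41.5%, against 19.9%). Polyclonal sample 4 was the lowest array for 20 of them. The core genes' share of the summed signal was 3.47% in expansion 3 and 3.6% in polyclonal sample 2, and 2.06% to 2.71% on the other 6 arrays. The groups therefore overlapped, each with a high array and 3 lower ones.

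**Figure D2:**
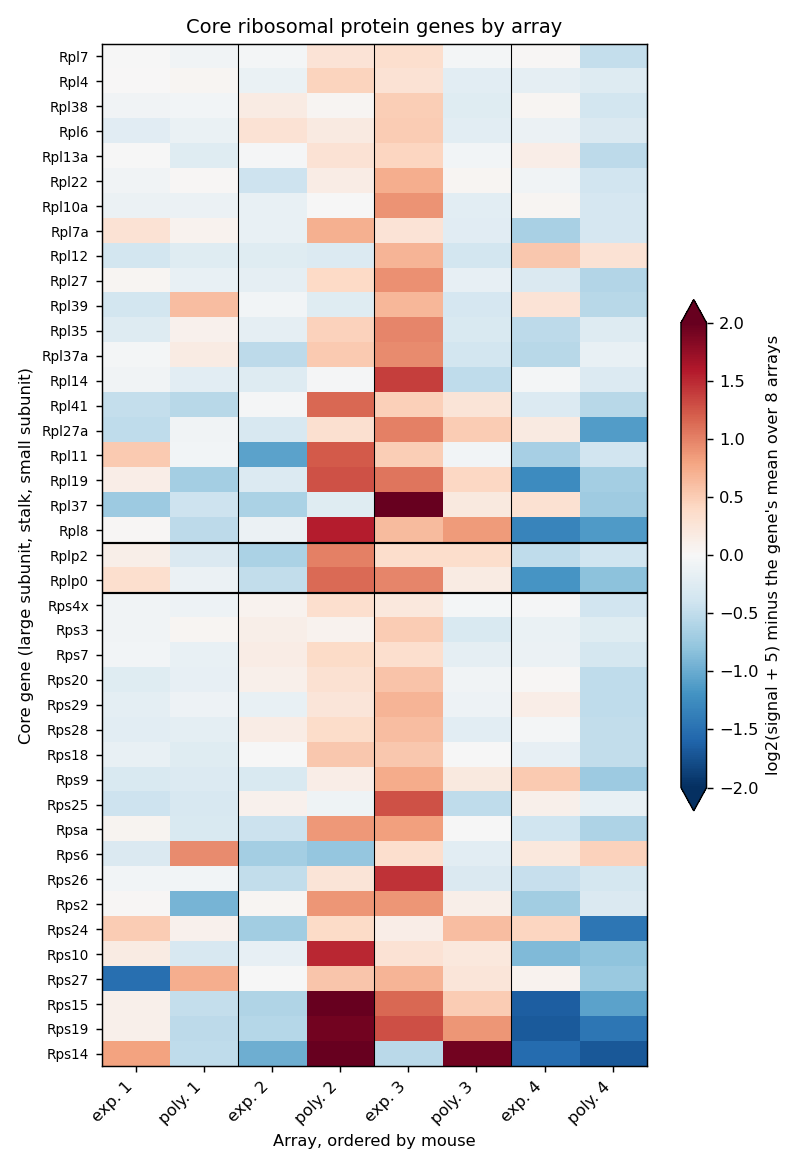
Log2 signal of each core ribosomal protein gene (rows) on the 8 arrays (columns), centred on the gene's mean over the arrays. The columns of expansion 3 and polyclonal sample 2 are the high ones, with column medians of 0.67 and 0.39.

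The arrays also differed in technical readouts. The hybridisation controls, centred on their own mean, stood at -0.31, 0.26, 0.75 and 0.24 in expansions 1 to 4 and at -0.53, 0.27, -0.03 and -0.66 in polyclonal samples 1 to 4. They were highest on expansion 3, as the core genes were, but polyclonal sample 2 had controls near those of expansions 2 and 4 and a higher core level. The signal ratio of the 3′ to the 5′ probe set of Actb, a measure of RNA integrity and labelling length, was 38.2, 52.6, 47.6 and 54.1 in the expansions and 54.5, 42.6, 34.9 and 89.7 in the polyclonal samples. The same ratio for Gapdh was 5.33, 5.63, 2.78 and 6.56 in the expansions and 7.33, 8.41, 4.62 and 5.66 in the polyclonal samples. It was lowest on expansion 3 and highest on polyclonal sample 2, the arrays with the highest core medians. The 18S ribosomal RNA probe set gave 1017, 488.3, 1214 and 391.3 in the expansions and 348.6, 1968, 1178 and 191 in the polyclonal samples. Polyclonal sample 4, with the lowest core median, had the highest Actb ratio and the lowest 18S signal. Its Gapdh ratio of 5.66 was not extreme. Expansion 1 and polyclonal sample 3 had low Actb ratios and high 18S signals without a high core level. The controls differed by 0.22, -0.00, 0.78 and 0.90 between the members of pairs 1 to 4. Subtracting them left core medians of -0.19, -0.57, -0.13 and -0.66. The part of these readouts in the core differences was not tested.

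**Figure D3:**
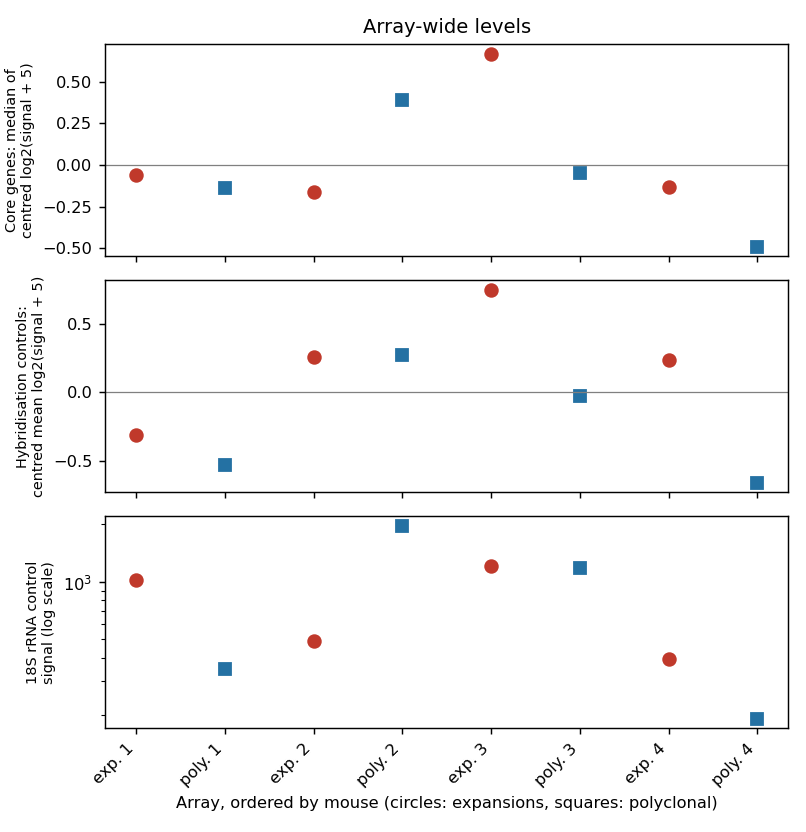
Centred log2 level of the core ribosomal protein genes and of the hybridisation controls, beside other array readouts, on each of the 8 arrays. The core median reached 0.67 and the controls 0.75 on expansion 3, and both were lowest on polyclonal sample 4, at -0.49 and -0.66.

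Among the 20 large subunit genes 13 were positive and 7 negative, with a median of 0.17. Rpl37, a small zinc-binding protein of the large subunit, had the largest positive difference, on a probe set whose x_at suffix marks possible cross-hybridisation. Its signal was 102.8, 110.1, 826.3 and 213.5 in expansions 1 to 4 and 128.1, 146.1, 197.7 and 103.7 in polyclonal samples 1 to 4. Expansion 3 stood far above the rest and the groups overlapped, with a mean log2 difference of 0.59 (SE 0.45, n = 4 pairs; limma adjusted p = 0.9998). Rpl14 showed the same form: 2415, 2117, 6554 and 2451 in the expansions and 2183, 2481, 1779 and 2079 in the polyclonal samples, a difference of 0.51 (SE 0.38). Rpl10a and Rpl38 had differences of 0.33 (SE 0.26) and 0.31 (SE 0.21) on the deposited scale, and -0.14 and -0.16 when arrays were centred on the hybridisation controls.

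At the negative end stood Rpl8 and Rpl11. Rpl11 binds Mdm2 when ribosome assembly fails and so links the ribosome to p53. Rpl8 gave 16960, 15330, 25850 and 6696 in the expansions and 11610, 49270, 30040 and 7596 in the polyclonal samples. Its difference was -0.38 (SE 0.34), and 0.05 without mouse 2. Rpl11 gave 12670, 4192, 12410 and 5526 in the expansions and 8458, 20510, 8429 and 6715 in the polyclonal samples. The polyclonal sample of mouse 2 was the highest for both, and the Rpl11 difference of -0.36 (SE 0.44) was 0.29 without that mouse. Rpl4 varied least of the large subunit genes, with a 1.64-fold range over the 8 arrays and a difference of -0.00 (SE 0.23).

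Both stalk genes had negative differences. Rplp0 gave 10860, 6133, 16900 and 3786 in the expansions and 7965, 18940, 9669 and 4893 in the polyclonal samples, a difference of -0.19 (SE 0.38). Rplp2 gave 22410, 13280, 26270 and 14470 against 16820, 41380, 26390 and 15580, a difference of -0.33 (SE 0.33). Polyclonal sample 2 was highest for each, and without mouse 2 the differences were 0.29 and 0.10.

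Of the 19 small subunit genes tested, 13 were positive and 6 negative, with a median of 0.12. Rps14, a protein of the small subunit's platform, varied more than any other tested core gene. It gave 13970, 4066, 5518 and 2756 in expansions 1 to 4 and 5628, 46750, 30560 and 2487 in polyclonal samples 1 to 4. Polyclonal samples 2 and 3 stood above the other 6 arrays, and these are the samples of 75% and 66% sort purity. The 4 CD4 T cell genes summed to 276.5 and 419.4 there, and to between 180.7 and 345.1 on the other arrays. The mean difference was -1.13 (SE 0.65, n = 4 pairs; limma adjusted p = 0.9998). With purity as a covariate it was 0.24, and the core median was 0.04 in place of 0.12. In the alpha4-low pairs that covariate took the core median from 0.14 to -0.03, with 19 of 41 core genes positive. The part of other cells in the Rps14 difference was not tested.

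Rps15 and Rps19 came next in range. Rps19, whose loss in people causes Diamond-Blackfan anaemia, gave 1655, 1031, 3781 and 475.2 in the expansions and 1073, 5896, 2850 and 561.8 in the polyclonal samples. Rps15 gave 1405, 867.6, 2909 and 414 against 942.1, 5494, 1864 and 621.5. Both were highest in polyclonal sample 2 and second highest in expansion 3 with overlapping groups. Their differences were -0.43 (SE 0.48) and -0.51 (SE 0.51), and without mouse 2 they were 0.26 and 0.21.

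Rps25 had the largest positive difference of the small subunit, 0.52 (SE 0.35). It gave 3713, 5285, 12010 and 5315 in the expansions and 3989, 4696, 3468 and 4499 in the polyclonal samples, so that expansion 3 carried most of the difference. Rps6, the substrate of S6 kinase, gave 3008, 2279, 4607 and 4258 against 7044, 2144, 3165 and 5019, a difference of -0.21 (SE 0.34). Rpsa, also known as the laminin receptor, gave 43450, 31110, 74500 and 31970 against 34150, 76470, 41590 and 27460. Its difference was 0.03 (SE 0.32). Rps4x and Rps7 varied 1.64-fold and 1.66-fold over the 8 arrays, and their differences were 0.09 (SE 0.21) and 0.15 (SE 0.21). Rps4x had -0.09 and Rps7 -0.04 after quantile normalization.

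Across the 8 arrays the 820 pairs of core genes had a median Pearson correlation of 0.63, with quartiles of 0.42 and 0.80. The points share their 8 libraries and each library's scaling, so this describes the arrays rather than the genes. The 20 brighter core genes, with mean signals of 28590 to 78250, had a median range of 2.13-fold over the arrays. The 21 dimmer ones, at 95.83 to 26860, had a median range of 4.36-fold. In pair 2 the brighter genes had a median difference of -0.35 and the dimmer ones of -1.08.

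Probe sets of one gene did not give the same answer. The core genes have 95 single-symbol probe sets, of which 85 were tested, and 19 genes have more than 1 tested. The probe sets of 6 of these 19 had the same sign. Their median spread in the mean difference was 0.47, more than the core median itself. For Rpl37a they ran from -1.57 to -0.08, for Rpl35 from -1.24 to 0.11 and for Rps9, whose brightest probe set gave 0.33 (SE 0.29), from -0.88 to 0.33. The lowest values of Rpl37a and Rpl35 came from dim probe sets, above background on 6 and 4 of the 8 arrays. The next lowest were -0.45 for Rpl37a and -0.53 for Rpl35. For Rps14 both probe sets were negative, at -1.24 and -1.13, but both end in x_at, a suffix that marks possible cross-hybridisation. Rps14 therefore dropped out when such probe sets were left out. The chosen probe set of 15 of the 43 core genes carries a suffix that marks possible cross-hybridisation, and ribosomal protein genes have many pseudogenes of near-identical sequence. The 36 tested probe sets ending in x_at had a median of 0.05 and the 21 with the plain suffix a median of -0.12. Taking the dimmest tested probe set of each gene left 41.5% of the core genes positive in place of 63.4%.

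**Figure D4:**
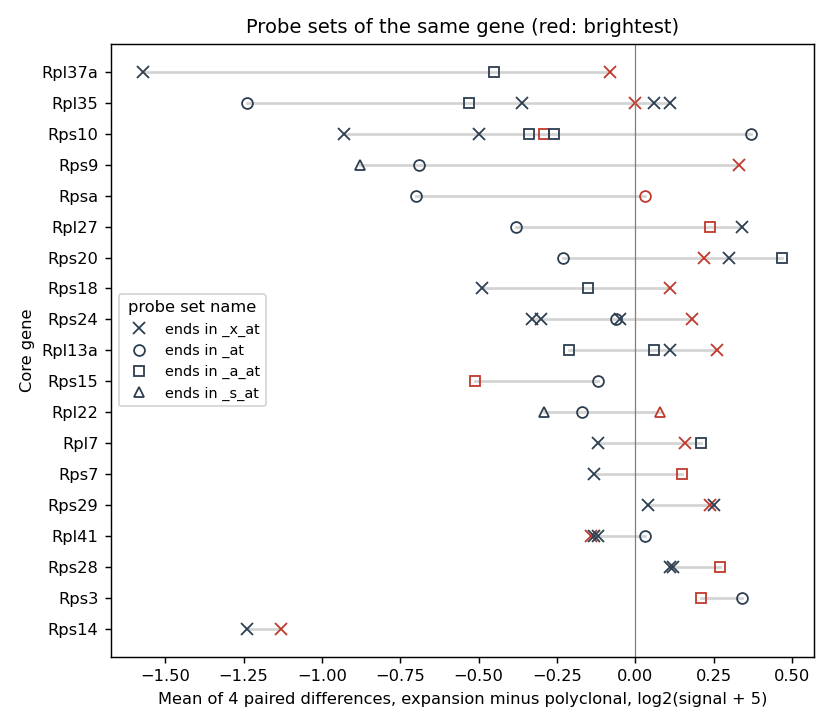
Mean log2 difference, expansion minus polyclonal, of every tested probe set of the core genes with more than 1 tested probe set, by kind of probe set suffix. Probe sets of a gene spread over a median of 0.47, and 6 of the 19 genes have all probe sets on one side of 0.

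Among the 3 tested paralogues, Rpl39l and Rpl22l1 kept one sign in all 4 mice. Of all genes tested, 5.34% were positive and 4.78% negative in every pair. Rpl39l is a testis-enriched copy of Rpl39. Its signal was 3.112, 8.607, 32.85 and 221.5 in expansions 1 to 4 and 62.15, 78.56, 723.4 and 1285 in polyclonal samples 1 to 4. The polyclonal sample was the higher member of all 4 pairs, although the groups overlapped because both members of pair 4 were high. In expansions 1 to 3 the signal was not above background, so the polyclonal signal was at least 1.33-fold, at least 1.52-fold and at least 11.7-fold higher there when set against the background of the expansion's array, and 5.8-fold higher in pair 4. Rpl39l passed the filter on dim probe sets through its polyclonal samples, so that it had to differ, and a fitted log2 difference (-3.11, SE 0.46, n = 4 pairs; limma adjusted p = 0.147) depends on the pseudocount and is not a measured size. It did not pass, and went under the threshold without mouse 1 (adjusted p = 0.0362), in a fit that called 20 probe sets. Nothing is read from that, since 2 of the 3 expansions left are not above background.

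Rpl39 itself gave 151.1, 189, 313.5 and 237.5 in the expansions and 302.9, 163.8, 154 and 131.5 in the polyclonal samples. It was lower in the expansion of mouse 1 and higher in the other 3, with a mean of 0.26 (SE 0.41), or -0.21 after centring on the hybridisation controls.

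Rpl22l1, which can stand in for Rpl22 and is known for a role in T cell development, was higher in the expansion of all 4 mice. It gave 5790, 5494, 5137 and 6985 in the expansions and 4214, 3355, 3031 and 4297 in the polyclonal samples. The groups did not overlap, since the lowest expansion, 5137, lay above the highest polyclonal sample, 4297. How many of all genes tested separate in this way was not counted, so nothing is read from the separation. The pairwise folds were 1.37, 1.64, 1.69 and 1.63, and the mean difference was 0.66 (SE 0.27, n = 4 pairs). The limma p was 0.035 unadjusted and 0.9998 adjusted over all probe sets, so it did not pass. The difference stayed positive under all alternatives run, between 0.18 and 0.75. Rpl22, a protein needed for alpha beta T cell development, gave 43490, 34250, 75700 and 43260 against 46570, 50880, 46740 and 34960, a difference of 0.08 (SE 0.24) that was -0.12 after quantile normalization.

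Rps27l, a target of p53, gave 3466, 1819, 3836 and 2638 in the expansions and 2177, 2000, 1831 and 1730 in the polyclonal samples. It was higher in 3 of 4 pairs, with a difference of 0.55 (SE 0.32; limma adjusted p = 0.9998). Rps27 gave 26.89, 84.87, 140.6 and 90.52 against 145, 127.5, 102.3 and 48.95, a difference of -0.38 (SE 0.54) that was 0.23 without mouse 1. Rpl3l, known from heart and skeletal muscle, was not tested. It was above background in expansions 3 and 4 at 62.79 and 69.32 and on no other array, with 7.214 and 45.23 in expansions 1 and 2 and 2.981 to 28.15 in the polyclonal samples. The expansion was the higher member of all 4 pairs, but in pairs 1 and 2 neither member was above background.

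**Figure D5:**
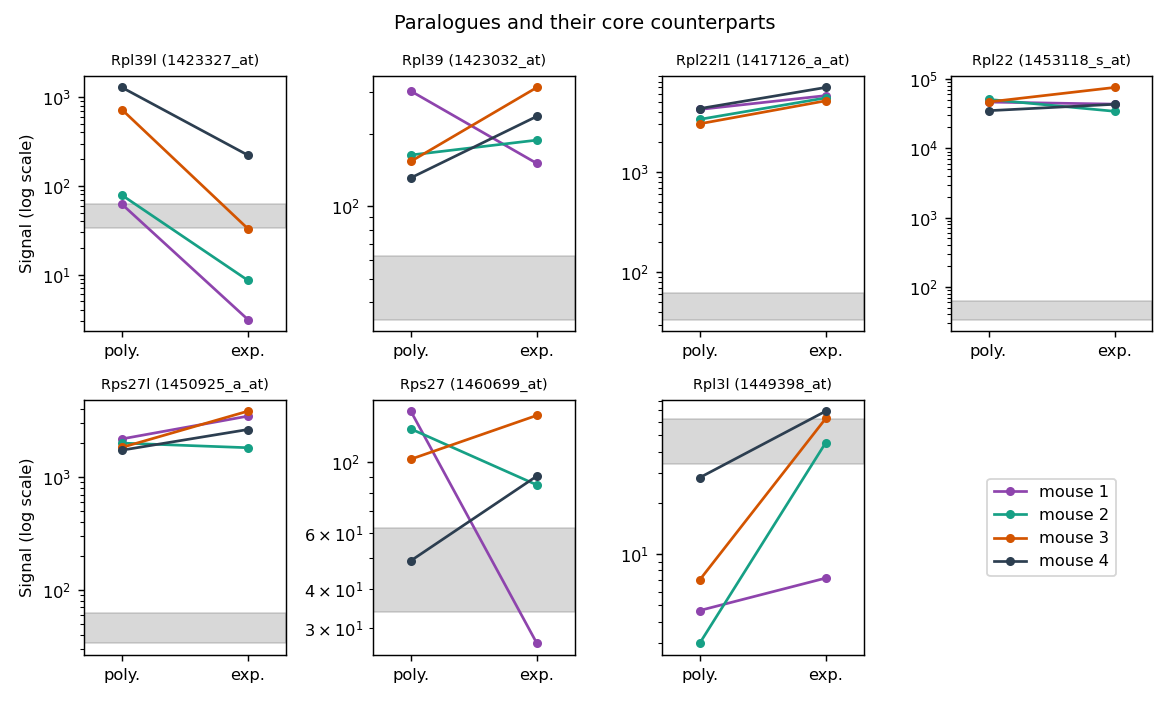
Signal of the paralogues and their core counterparts in each expansion and its polyclonal partner on a log axis, with a line joining the samples of a mouse. Rpl39l was higher in the polyclonal member of all 4 pairs and Rpl22l1 higher in the expansion of all 4, and neither passed an adjusted p of 0.05. In expansions 1 to 3 the Rpl39l signal was not above background.

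With the alpha4-low expansions alone (mice 2 to 4), 27 of 41 core genes were positive and 14 negative, with a median of 0.14 against -0.03 for all genes tested, of which 47.8% were positive and 52.2% negative. None passed an adjusted p of 0.05, where 0.00961% of all genes passed as higher and 0.0577% as lower. Of the 41 genes 6 were higher in each of the 3 pairs (14.6%, against 10.8% of all genes) and 2 lower in each (4.88%, against 13.6%). The largest positive differences were those of Rpl37 at 0.88 (SE 0.50), Rps25 at 0.73 (SE 0.42), Rpl39 at 0.68 (SE 0.42) and Rpl14 at 0.63 (SE 0.46). After quantile normalization the core median was -0.08 with 19 positive, and after centring on the hybridisation controls -0.41 with 4 positive.

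Rps14 had the largest negative difference there and was the only core gene with an unadjusted p under 0.05, a threshold reached by 3.92% of all genes with a lower and 1.34% with a higher signal. Its mean signal was 4113 ± 1382 (SD, n = 3) in the alpha4-low expansions and 26600 ± 22400 in their partners. The difference was -1.95 (SE 0.56; limma adjusted p = 0.707). Without mouse 3 it was -1.69 (adjusted p = 0.0127) and without mouse 4 it was -3.0 (adjusted p = 0.000301), in fits that called 133 and 148 of all probe sets against 12 with the 3 pairs, so that passing there is not particular to Rps14. Across the alternatives it ran from -3.0 to -0.18 with adjusted p from 0.000301 to 1.0. Rps15, Rps19, Rpl8 and Rpl11 followed at -0.87 (SE 0.56), -0.78 (SE 0.53), -0.69 (SE 0.37) and -0.67 (SE 0.48).

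Rpl39l did not pass in the alpha4-low pairs (limma adjusted p = 0.0695), where expansion 4 is the only expansion above background. The adjusted p was 0.0397 without mouse 2 and 0.0426 with arrays centred on their median, in fits that called 18 and 29 probe sets, with the same limit. Rpl22l1 had 0.72 (SE 0.37; adjusted p = 0.966).

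The difference between the alpha4-low pairs and the alpha4-high pair compares 3 mice with 1, so it assumes that mouse 1 varies like the others. Of the core genes 27 had a positive and 14 a negative difference, with a median of 0.13 against -0.09 for all genes tested, of which 45.5% were positive and 54.5% negative. Without mouse 3, 41.5% of the core genes were positive, and after quantile normalization 18 of 41. None passed, where 0.0384% of all genes passed as higher and 0.048% as lower. An unadjusted p under 0.05 was reached by Rps27 with a positive and Rps14 with a negative difference, and by 2.48% and 4.15% of all genes. Rps27 had the largest positive value, 2.47 (SE 1.05; limma adjusted p = 0.691). Its signal in expansion 1, 26.89, was not above that array's background of 46.6, so this value is not a measured size. Rps14 had the largest negative value, -3.26 (SE 1.12; limma adjusted p = 0.52). Without mouse 3 it was -3.0 (adjusted p = 0.00456) and without mouse 4 it was -4.31 (adjusted p = 0.00654), in fits that set 2 mice against 1 and called 266 and 215 probe sets against 12. For Rpl39l, not above background in 3 of the 4 expansions, no size of this difference was measured.

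Other parts of the translation machinery gave no call among their tested members either. Of 7 elongation factors 4 were positive and 3 negative, with a median of 0.10. Eef2, which moves the ribosome along the messenger RNA, had -0.67 (SE 0.52), with 1.01, -2.82, -0.46 and -0.41 in pairs 1 to 4. Of 31 initiation factors 16 were positive and 15 negative, with a median of 0.00, from Eif2b2, a subunit of the exchange factor for Eif2, at 1.02 to Eif3l at -0.71. The Eif2b2 differences were 0.6, -0.1, 3.08 and 0.51 in pairs 1 to 4, so pair 3 carried most of its mean. The 16 other genes of terminal oligopyrimidine messenger RNAs tested had 11 positive and 5 negative differences and a median of 0.13, close to the core median of 0.12. Of these, the translationally controlled tumour protein gene Tpt1 had 0.13 and Npm1, a nucleolar chaperone, had 0.18.

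Genes that make ribosomes rather than compose them had medians at or below 0 and no call. Of 48 biogenesis factors tested 21 were positive and 27 negative, with a median of -0.04 and pair medians of -0.18, -0.41, 0.55 and -0.01. Fbl, the nucleolar RNA methyltransferase fibrillarin, had -0.75 (SE 0.37), with -0.07, -1.85, -0.36 and -0.7 in pairs 1 to 4. Nucleolin, Ncl, had -0.62 (SE 0.37), with -0.2, -1.96, -0.41 and 0.08, so pair 2 carried most of both means. Npm1, also on this list, had 0.18. For RNA polymerases I and III and their factors 9 were positive and 17 negative, with a median of -0.13. Mitochondrial ribosomal proteins, which share the assay but not the assembly pathway, had 38 positive and 37 negative of 75, with a median of 0.01 and pair medians of 0.19, -0.38, 0.30 and -0.09. In each of these lists pair 2 had a negative and pair 3 a positive median, as the core genes had.

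The mTORC1, S6 kinase and Myc list had 11 positive and 10 negative genes, with a median of 0.01. The largest differences went both ways: Rps6ka6 had 1.21 and Mycn 0.79, while Max, the partner of Myc, had -0.98 and Mxd1 -0.86. Rps6ka6 was above background on 6 arrays and Mycn on 7. Myc, which drives ribosome production, had -0.46. The nucleolar stress and p53 list had 4 positive and 7 negative, with Cdkn1a, an inhibitor of the cell cycle, at 0.96 and the p53 antagonist Mdm4 at -0.88. The cell cycle list had 25 of 29 positive, with a median of 0.54, against 49.4% of all genes positive. Of its genes 8 reached an unadjusted p of 0.05 as higher, against 1.21% of all genes, and none was called. Its pair medians were 0.61, 0.27, 0.99 and -0.36, so in pair 2 the cell cycle genes had a positive median where the core ribosomal protein genes had -0.57.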

How the data were processed

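RNA from 8 sorted populations was hybridised to Affymetrix Mouse Genome 430 2.0 arrays. The authors deposited linear signal intensities of 45101 probe sets, scaled per array with MAS5 per the submitters' processing notes. The scaling target and annotation release are not given in the sources used here. The mean signal after trimming 2% of the probe sets at each end was 500 on all 8 arrays. Probe sets were named through the platform annotation: 34958 have 1 symbol, 932 several and 9211 none, and genes were named from the first kind only. Controls (64 probe sets) were left out. Values were taken as log2(signal + 5), which understates differences of dim genes, and 22518 probe sets with a mean above the median were tested. The fit was limma 3.58.1 in R 4.3.3 (lmFit, eBayes with an intensity trend), 2-sided, with the mouse as a block because both samples of a pair came from the same animal, as the design text states. Deviations of the 2 samples of a mouse correlated at 0.37, 0.08, 0.21 and 0.34. P-values were adjusted by Benjamini and Hochberg over all tested probe sets, with a threshold of 0.05; counts use 1 probe set per gene (10406 genes). Residual degrees of freedom were 3 for all pairs and 2 with the subclasses apart, and this number of arrays limits the precision. Background was the 95th percentile of 27 bacterial probe sets per array (33.7 to 61.9). The fits were tested on simulated data.

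Named core genes were those with the largest differences in each direction, the smallest p-values, the smallest and largest ranges, and a list of well-studied members; paralogues and counterparts were all named, and from other lists genes with the largest differences, with Tpt1, Npm1 and Myc added after their values were seen. Members and lists were chosen with earlier results of these data known. Each result was recomputed with other pseudocounts, filters, scalings, variance settings, a purity covariate, no block, a mouse left out and other probe set choices. Centring on hybridisation controls, adding several-symbol probe sets and adding Rps3a1 were chosen after seeing the data. Rplp1 and other genes found only on several-symbol probe sets were not analysed here as members.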

Additional observations from a re-analysis of the deposited data

Results flagged for a closer look

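Among 52 groups of 4 samples checked, 2 had a sample far from the other 3; by chance about 1 in 20 such groups would. The signal of Rpl14 was 6554 in expansion 3 and between 2117 and 2451 in the other expansions. The median core ribosomal protein gene stood at 0.67 on the centred log2 scale in expansion 3, and at -0.06, -0.16 and -0.13 in expansions 1, 2 and 4.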

How the results depend on the processing

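Each result was recomputed under 18 planned and 3 added alternatives where these could be run. Differences are on the log2 scale for all pairs unless named. Without the replicate block for the mouse the core median was 0.118 for all pairs, 0.136 for the alpha4-low pairs and 0.196 for the difference between subclasses, and no core gene was called; the Rpl39l difference between subclasses was then 2.59. The percentage of core genes positive, 63.4 for all pairs, was 41.5 after quantile normalization, 41.5 with the dimmest probe set and 7.32 with hybridisation control centring. With that centring it was 9.76 in the alpha4-low pairs and 41.5 for the difference between subclasses (each 65.9), and 1 core gene, Rps14, was called in the alpha4-low pairs, where 510 probe sets were called in place of 12; this centring moves all genes down alike. Leaving out 1 mouse gave 0 to 1 called core genes in the alpha4-low pairs and in the difference between subclasses. That gene was Rps14, without mouse 3 (133 and 266 probe sets called) or mouse 4 (148 and 215), against 12 in each comparison with all its mice.

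Leaving out a mouse in turn, the percentage positive for the difference between subclasses ran from 41.5 to 73.2 and the mean differences ranged as follows: Rpl11 from -0.67 to 0.29 (-1.28 to 0.14 in the alpha4-low pairs), Rps15 from -0.89 to 0.21 (-1.62 to 0.03), Rps19 from -0.78 to 0.26 (-1.37 to 0.08), Rpl8 from -0.69 to 0.05, Rplp0 from -0.52 to 0.29, Rplp2 from -0.58 to 0.10, Rps27 from -0.78 to 0.23, Rps6 from -0.46 to 0.13, Rpl4 from -0.17 to 0.19, Rpl22 from -0.12 to 0.30, Rpsa from -0.24 to 0.47 and the Rpl39l difference between subclasses from -0.39 to 0.49. Hybridisation control centring turned Rpl10a to -0.14, Rpl22 to -0.39, Rpl38 to -0.16, Rpl39 to -0.21, Rps4x to -0.38, Rps7 to -0.32, Rpsa to -0.45 and Rps9 to -0.14 (-0.11 in the alpha4-low pairs). Quantile normalization turned Rpl22 to -0.12, Rps4x to -0.09, Rps7 to -0.04, Rpsa to -0.14 and the Rpl39l difference between subclasses to 0.44, and median centring turned Rpl4 to 0.09 and that of Rpl39l to 0.20. A pseudocount of 1 turned the latter to 0.61. The purity covariate turned Rps14 to 0.24, Rpl22 to -0.01, Rpl39 to -0.13, Rpl14 and Rps25 in the alpha4-low pairs to -0.15 and -0.05, and the Rpl39l difference between subclasses to 1.15. The dimmest probe set turned Rpl22 to -0.29, Rps7 to -0.13, Rpsa to -0.70 and Rps9 to -0.69 (-0.96 in the alpha4-low pairs). The mean of all probe sets turned Rpl22 to -0.13, Rpsa to -0.34 and Rps9 to -0.41 (-0.61), and leaving out probe sets that may cross-hybridise turned Rpl22 to -0.17 and Rps9 to -0.69 (-0.96). The cause of these turns was not tested. Of 45 named differences 20 kept their direction under all alternatives run, and 22 leaving hybridisation control centring aside; both Rpl22l1 differences were among them. Rpl39l went under the threshold with that centring, for which 19 probe sets were called over 4 mice and 510 in the alpha4-low pairs. Leaving out Rpl10l could not be run, because it has no single-symbol probe set here. Signal under background limits Rpl39l, Rpl3l and Rps27, and the Rpl39l values above show only how the fit moves.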

Other observations

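Ribosomal protein symbols also occur on 110 probe sets that carry several symbols, and 28 of the 43 symbols found there have no probe set of their own. The 105 of these that were tested had pair medians of 0.02, -0.35, 0.61 and 0.19 in mice 1 to 4 and a median of 0.13 over all pairs, beside 0.03, -0.57, 0.64, 0.24 and 0.12 for the core genes. Rps3a1, whose symbol falls outside the naming rule, had a difference of -0.15, and Fau, which encodes a small subunit protein fused to a ubiquitin-like domain, had -0.04.

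Polyclonal sample 2 and expansion 3 were the 2 highest arrays for 23 of the 41 core genes, against 13.9% of all genes tested. Polyclonal samples 2 and 3, those of lowest sort purity, were the 2 highest for Rps14, Rpl8 and Rplp2, that is 3 of the 41, where 8.89% of all genes had that order.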
